A study of Mus musculus with 5 samples.

Results

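RYBP peaks were compared with H2AK119ub peaks in wild-type mouse embryonic stem cells. Of the 54793 peaks in the series on any chromosome, 33679 autosomal peaks entered the comparison. All 9497 RYBP peaks and all 24182 H2AK119ub peaks of the wild-type lists on the 19 autosomes were taken. The cells were the established line MPI-II without a genetic change, grown on feeder cells in medium with serum, LIF and inhibitors of MEK and of GSK3. Both proteins were mapped by chromatin immunoprecipitation and sequencing (ChIP-seq), RYBP with an antibody listed under its alias DEDAF. The series asked how loss of the RNA helicase DDX5 bears on lineage genes and Polycomb complexes; its DDX5 knockout and input libraries are not analysed here. Each side had 1 library, so the spread between replicates is unknown and no test was made.

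Polycomb repressive complex 1 (PRC1) attaches ubiquitin to a lysine of histone H2A through the ligases RING1 and RNF2, and the mark, H2AK119ub, is found over repressed developmental genes. RYBP and its paralog YAF2 are subunits of the variant forms of PRC1, from which CBX proteins are absent, and RYBP can also bind ubiquitylated H2A. In embryonic stem cells variant PRC1 is brought to unmethylated CpG islands, among others by the CpG-binding subunit KDM2B.

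Genes fell into 3 occupied classes, those with both RYBP and the mark within 2 kb of the gene start, those with RYBP only and those with the mark only. Where no strand was known, both gene ends were used. The promoters below show the first 2 genes of each class by covered length, in alphabetical order among ties, whose promoter itself lay in the peaks of the class, because the classes differ in promoter CpG content. Each line is the 250 bases before the start, from RefSeq on GRCm38.p6, the assembly of mm10, written 5′ to 3′ on the gene's strand, with every CpG in capitals. Cilp2 (chr8:69887393-69887642, minus strand), for a secreted cartilage protein, and Hoxa5 (chr6:52204588-52204837, minus), for a body-axis transcription factor, had both. Efna5 (chr17:62881318-62881567, minus), for an ephrin ligand, and Hmga2 (chr10:120476470-120476719, minus), for an AT-hook chromatin protein, had RYBP only. Amn (chr12:111270846-111271095, plus), for a protein of uptake in gut and kidney, and Aqp2 (chr15:99578806-99579055, plus), for a kidney water channel, had the mark only.
Cilp2: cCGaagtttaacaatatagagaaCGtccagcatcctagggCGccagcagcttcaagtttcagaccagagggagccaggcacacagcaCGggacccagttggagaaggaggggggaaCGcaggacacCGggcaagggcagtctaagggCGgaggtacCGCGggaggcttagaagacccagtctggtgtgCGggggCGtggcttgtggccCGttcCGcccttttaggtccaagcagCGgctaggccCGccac
Hoxa5: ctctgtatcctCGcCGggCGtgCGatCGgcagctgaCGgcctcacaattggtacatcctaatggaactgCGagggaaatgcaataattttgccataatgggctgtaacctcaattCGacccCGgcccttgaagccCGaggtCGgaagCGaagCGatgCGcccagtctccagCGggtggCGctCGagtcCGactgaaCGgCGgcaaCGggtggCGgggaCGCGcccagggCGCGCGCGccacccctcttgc
Efna5: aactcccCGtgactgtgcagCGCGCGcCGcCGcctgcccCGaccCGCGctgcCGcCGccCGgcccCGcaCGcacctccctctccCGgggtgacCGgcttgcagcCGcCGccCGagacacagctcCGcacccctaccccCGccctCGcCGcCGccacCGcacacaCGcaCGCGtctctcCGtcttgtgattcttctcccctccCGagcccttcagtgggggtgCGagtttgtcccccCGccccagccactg
Hmga2: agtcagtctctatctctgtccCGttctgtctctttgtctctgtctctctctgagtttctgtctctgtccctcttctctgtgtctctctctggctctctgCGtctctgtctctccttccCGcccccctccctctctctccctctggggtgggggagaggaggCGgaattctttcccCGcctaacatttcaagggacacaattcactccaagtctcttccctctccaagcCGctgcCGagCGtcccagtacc
Amn: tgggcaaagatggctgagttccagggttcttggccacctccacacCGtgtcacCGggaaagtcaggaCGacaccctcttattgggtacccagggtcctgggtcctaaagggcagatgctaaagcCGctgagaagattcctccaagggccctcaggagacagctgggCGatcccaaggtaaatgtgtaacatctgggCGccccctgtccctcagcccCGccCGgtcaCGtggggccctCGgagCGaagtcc
Aqp2: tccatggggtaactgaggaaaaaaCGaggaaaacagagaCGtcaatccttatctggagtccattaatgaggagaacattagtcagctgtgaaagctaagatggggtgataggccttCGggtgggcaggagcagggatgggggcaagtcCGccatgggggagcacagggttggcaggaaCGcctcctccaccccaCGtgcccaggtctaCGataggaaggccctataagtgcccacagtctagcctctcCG
In these 250 bases Cilp2 had 15 CpGs and Hoxa5 had 28. Efna5 had 32 and Hmga2 had 8, so a promoter with few CpGs occurred in the RYBP-only class too. Amn had 11 and Aqp2 had 8. Amn and Aqp2 were tied at 4000 bp of mark with others, among them Erfl and Bcar1, whose CpG ratios (observed over expected in the 300 bases around the start) were 1.06 and 0.956, against 0.515 for Amn and 0.361 for Aqp2. CpG-rich promoters thus occurred in the mark-only class too.

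RYBP peaks were fewer and more even in width than peaks of the mark. Their widths ran from 521 to 8902 bp with a median of 1636 bp (quartiles 1309 and 2087 bp), and they covered 17.1 Mb. The mark's peaks ran from 387 to 39824 bp with a median of 1361 bp (quartiles 1011 and 2063.75 bp) and covered 45.8 Mb. Of the autosomes between their first and last gene, this is 0.701% for RYBP and 1.88% for the mark. Of the 9497 RYBP peaks, 4423 overlapped a peak of the mark by at least 1 bp, 46.6% (95% Wilson interval 45.6% to 47.6%). Of the 24182 mark peaks, 5272 overlapped RYBP, 21.8% (21.3% to 22.3%). Most mark peaks therefore had no RYBP, and 53.4% of RYBP peaks had no mark. Counted by sequence, 37.2% of the RYBP length lay in the mark and 13.9% of the mark length lay in RYBP. The intervals cover counting error only and treat peaks or genes as independent, the read depth is unknown, and a factor in some of the cells cannot be told apart from weak binding in all of them. Nor do overlapping peaks show that both were on the same DNA molecule.

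RYBP peaks without the mark were seldom next to it. Their median distance to the nearest mark peak was 75.1 kb (quartiles 16.9 and 265 kb), 447 of 5074 lay within 2 kb (8.81%), and 43.8% lay beyond 100 kb. Mark peaks without RYBP lay at a median of 22.8 kb from the nearest RYBP peak, 9.11% of them within 2 kb. RYBP peaks kept to gene ends whether or not they carried the mark. Within 2 kb of an end of a protein-coding gene lay 62.6% of the centres of RYBP peaks with the mark (61.2% to 64.1%) and 71.7% of those without it (70.5% to 73.0%). For mark peaks with RYBP the share was 56.4% (55.1% to 57.8%), and for mark peaks without RYBP it was 15.4% (14.9% to 15.9%). Of the latter, 49.5% lay inside a gene farther from its ends and 35.0% lay outside protein-coding genes.

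The overlap differed by chromosome. The share of RYBP peaks on the mark ran from 29.1% on chromosome 16 to 60.5% on chromosome 8, with a median of 44.7%. The share of mark peaks with RYBP ran from 13.8% on chromosome 4 to 37.4% on chromosome 3. On chromosome 8 both kinds of peak were wide, with medians of 2046 bp for RYBP and 1802.5 bp for the mark, and on chromosome 6 these were 1834 and 1439 bp. The other autosomes had medians of 1550 to 1651 bp for RYBP and 1234 to 1428 bp for the mark. The place of chromosomes 6 and 8 in results on wide peaks is given beside them or among the alternatives.

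Wide RYBP peaks lay on the mark more often than narrow ones. The share on the mark was 22.8% for RYBP peaks under 1 kb (19.5% to 26.4%), 33.0% at 1 to 1.5 kb, 43.2% at 1.5 to 2 kb, 65.7% at 2 to 3 kb and 89.6% at 3 kb or more (86.9% to 91.8%). RYBP peaks with the mark had a median width of 1884 bp, against 1492 bp without it. Each of the 5 widest RYBP peaks lay at a developmental gene and almost wholly in the mark. At Foxc2 (chr8:121112865-121121766), for a forkhead factor of mesoderm, the RYBP peak was 8902 bp wide with 100.0% in the mark. At its neighbour Foxf1 (chr8:121078523-121087100) it was 8578 bp wide with 98.3% in the mark. Gata2 (chr6:88193208-88201552), for a blood and neural regulator, had 8345 bp, and Irx3 (chr8:91798971-91807294), for a neural patterning factor, had 8324 bp. Cyp26b1 (chr6:84582521-84590621), for an enzyme that degrades retinoic acid, had 8101 bp. By the window at its start Cyp26b1 was classed with the mark only. A gene of that class can thus hold RYBP outside the window. All 5 were on chromosomes 6 and 8.

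The same held from the side of the mark, and wide domains more often held several RYBP peaks. A domain is here a deposited peak of the mark. The share with RYBP was 7.92% under 1 kb (461 of 5823), 17.9% at 1 to 2 kb (2141 of 11948), 37.4% at 2 to 5 kb (1988 of 5315), 59.4% at 5 to 10 kb (536 of 902) and 75.3% at 10 kb or more (146 of 194, 68.7% to 80.8%). A wider domain offers more sequence to hit, so the number per length was computed as well. It was 0.933 RYBP peaks per 10 kb of domain under 1 kb, 1.31 at 1 to 2 kb, 1.34 at 2 to 5 kb, 1.12 at 5 to 10 kb and 0.976 at 10 kb or more. RYBP peaks that reach over an edge count in full, which raises the number per length most in narrow domains. The share of domain length covered by RYBP rose through the same classes from 5.08% to 10.1%, 16.3%, 20.7% and 24.2%. Among the 1096 domains of 5 kb or more, the mean was 0.861 RYBP peaks. None was found in 414 (37.8%), 1 in 481 (43.9%), 2 in 157 (14.3%) and 3 or more in 44 (4.01%). Of the 194 domains of 10 kb or more, 83 held at least 2 (42.8%, 36.0% to 49.8%) and 26 at least 3 (13.4%). In domains of 5 kb or more, the centres of neighbouring RYBP peaks were a median of 4104.5 bp apart (262 pairs, quartiles 2999.2 and 5909.5 bp).

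**Figure D1:**
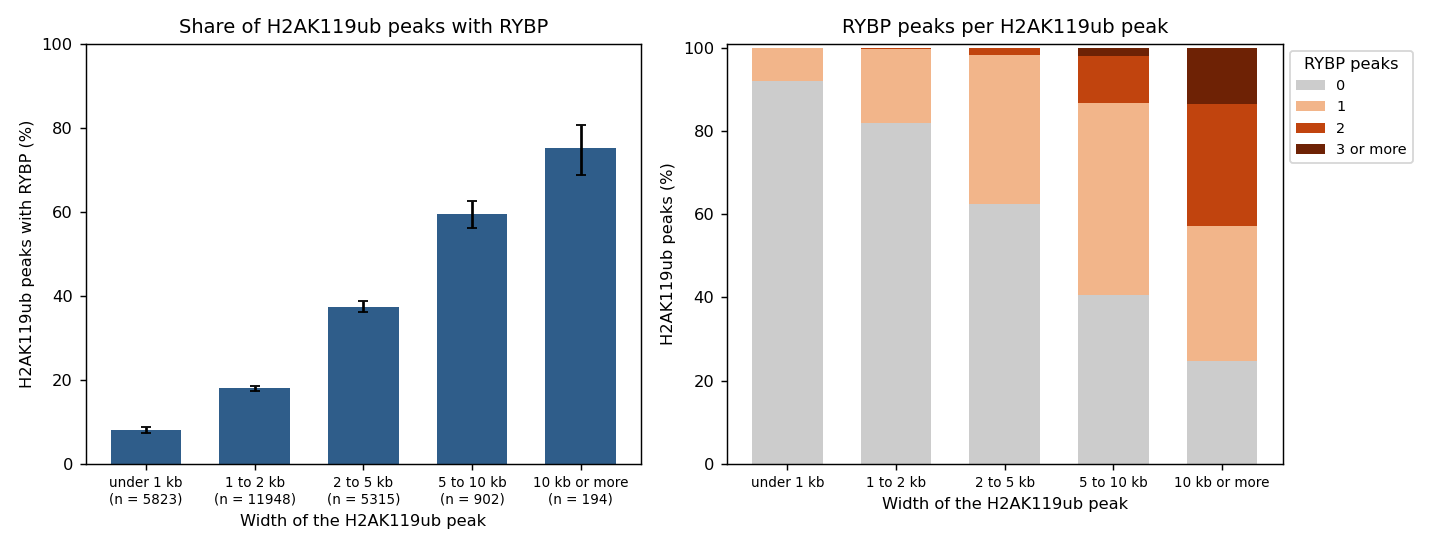
Left, share of H2AK119ub peaks that overlap RYBP (%, bars with 95% Wilson intervals) by width of the H2AK119ub peak; right, share of H2AK119ub peaks with 0, 1, 2 or 3 or more RYBP peaks. The share with RYBP rises from 7.92% under 1 kb to 75.3% at 10 kb or more, and peaks with 3 or more RYBP peaks reach 13.4% in the widest class.

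The domains with the most RYBP peaks lay over homeobox genes. A domain of 33520 bp over Hoxa9, Hoxa10 and Hoxa11 (chr6:52221852-52255371) held 8 RYBP peaks, which covered 74.2% of it. A domain of 39824 bp over Hoxb3 to Hoxb8 (chr11:96278905-96318728), the widest in the list, held 5 that covered 26.4%. The Pax2 domain (chr19:44747374-44765591, 18218 bp), at a gene for a kidney and eye regulator, held 5 that covered 55.6%. The Nkx2-2 domain (chr2:147180632-147192302, 11671 bp), at a gene for a ventral neural and islet regulator, held 5 that covered 72.4%. The Evx1 domain beside the Hoxa cluster (chr6:52306661-52325226, 18566 bp) held 4 that covered 40.0%. Domains of like width thus differed in how much of them lay in RYBP.

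3 Hox clusters, singled out after their values were seen, show that difference on a larger scale. From Hoxb1 to Hoxb9 the mark covered 93.7% and RYBP 24.1%, with 10 RYBP peaks. From Hoxc4 to Hoxc13 the mark covered 69.7% and RYBP 16.3%, with 10 peaks. From Hoxd1 to Hoxd13 the mark covered 72.3% and RYBP 32.6%, with 15 peaks. The Hoxd cluster thus had less of its length in the mark than the Hoxb cluster and more of it in RYBP.

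Wide domains without any RYBP peak numbered 48 of the 194 at 10 kb or more, and 22 of the 48 were on chromosome 8 (45.8%). On chromosome 8, 43 of 65 such domains had RYBP (66.2%), and outside it 103 of 129 (79.8%). The widest without RYBP was 24269 bp long inside Kcnq1 (chr7:143177869-143202137), the potassium channel gene whose locus holds an imprinted Polycomb domain, and the fourth, of 19715 bp, lay in the same gene (chr7:143372046-143391760). Across the 320 kb of Kcnq1, 32 mark peaks covered 57.1% of the gene, while its single RYBP peak covered 0.41%. The second (chr5:33446747-33470181, 23435 bp) overlapped no protein-coding gene and lay 12657 bp from the homeobox gene Nkx1-1. The third (chr8:121288342-121308490, 20149 bp) lay 157698 bp from Foxl1. The fifth (chr4:136929245-136948694, 19450 bp) lay in Epha8, for an ephrin receptor. A broad mark without a RYBP peak was thus found inside genes and away from them.

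Within domains of 5 kb or more RYBP sat nearer the centre than the edge. Position was scaled from 0 at the centre of a domain to 1 at its edge, and domains were divided at equal steps of it into an inner, a middle and an outer part, of which each would hold 33.3% of evenly spread points. Of 944 overlaps with such domains, 572 lay wholly inside (60.6%) and 779 had the RYBP centre inside (82.5%). These 779 centres had a median position of 0.427 (0.393 to 0.458) and a median distance to the edge of 2286 bp. In the inner part lay 40.1% (36.7% to 43.5%), in the middle 31.6% and in the outer part 28.4% (25.3% to 31.6%). The preference was moderate, since more than 1 in 4 centres still lay in the outer part. Across 10 equal parts of these domains, RYBP covered 16.1% of the first and 19.6% of the last, against 25.7% and 26.5% of the central pair. Domains with 1 RYBP peak had 43.5% of centres in the inner part (38.7% to 48.3%), and those with 2 or more had 36.4% (31.6% to 41.4%).

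Gene starts in the same domains were spread more evenly, though the difference from RYBP was within counting error. Of 236 starts of protein-coding genes inside domains of 5 kb or more, 33.9% lay in the inner part and 33.5% in the outer part. The inner part held 6.15 percentage points more of the RYBP centres than of the starts (Newcombe interval -0.958 to 12.9), and the outer part 5.1 points fewer (interval of RYBP minus starts -12.1 to 1.48).

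In domains of 1 to 5 kb the order was the opposite. Only centres inside the domain count here, which were 32.2% of 2166 overlaps at 1 to 2 kb and 56.3% of 2078 at 2 to 5 kb. RYBP peaks lay wholly inside in 1.8% and 17.0% of these overlaps. At 1 to 2 kb, 51.6% of 697 RYBP centres lay in the outer part (47.9% to 55.3%) and 21.7% in the inner part. At 2 to 5 kb these were 45.9% (43.1% to 48.8%) and 28.0% of 1170 centres. Gene starts lay there alike, with 47.8% and 45.5% in the outer part. RYBP minus starts in the outer part was 3.83 points at 1 to 2 kb (-2.15 to 9.77) and 0.425 points at 2 to 5 kb (-4.73 to 5.54). When mark peaks within 2 kb of each other were joined, the domains of 2 to 5 kb turned round, with 55.4% of RYBP centres in the inner part (52.1% to 58.6%) and 23.4% in the outer. At 1 to 2 kb, 45.7% stayed in the outer part. Centre or edge thus depended on whether a pair of close mark peaks was taken as 1 domain.

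**Figure D2:**
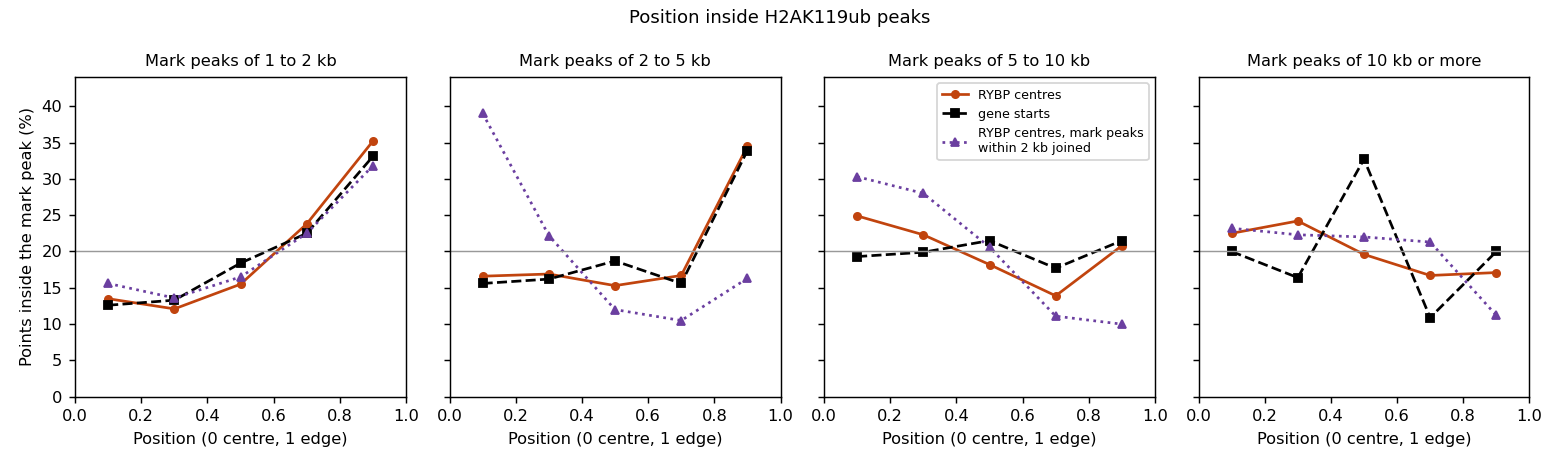
Share of points inside H2AK119ub peaks (%) by position, from 0 at the centre of the peak to 1 at its edge in 5 equal bins, in 4 width classes; the grey line is an even spread. RYBP centres (solid) and gene starts (dashed) gather at the edge of peaks of 1 to 5 kb, and joining mark peaks within 2 kb (dotted) moves RYBP centres to the middle at 2 to 5 kb.

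RYBP peaks also bridged gaps between mark peaks. Of the 4423 RYBP peaks with the mark, 3227 touched 1 mark peak (73.0%), 1165 touched 2 (26.3%) and 31 touched 3 (0.701%). The RYBP centre was inside a mark peak for 2748 (62.1%), beyond the end of the mark for 1156 (26.1%), and in the gap between mark peaks that the RYBP peak bridged for 519 (11.7%). Those 519 were 43.4% of the 1196 RYBP peaks that touched 2 or 3 mark peaks (40.6% to 46.2%). Short gaps in the mark had more RYBP centres per length than the mark itself. There were 175 per Mb in gaps under 500 bp, 136 in gaps of 500 bp to 1 kb and 68.8 in gaps of 1 to 2 kb. Most short gaps held none, since a RYBP centre lay in 3.57%, 9.94% and 9.88% of the gaps of these lengths. Inside mark peaks there were 60.0 per Mb, and in gaps of 10 kb or more 2.5. Around the centres of RYBP peaks that touched 2 or 3 mark peaks, the mark was present at 91.4% of sites 1000 bp to the left, 56.5% at the centre and 93.1% of sites 1000 bp to the right. A peak that touches the mark on both sides spans a gap by definition, so this profile is a description. RYBP peaks that touched 1 mark peak had a flat profile, at 62.8%, 64.2% and 62.0%. Peaks with the mark to their left and to their right are pooled here, so a difference between the sides of each peak could cancel out.

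Gene starts, whose positions come from the annotation and not from the peaks, showed a dip of the mark as well. Of the 20661 protein-coding autosomal genes, 16456 had a known strand, and 2220 of these had both RYBP and the mark. Over them, RYBP was present at 83.5% of starts, 24.4% of sites 1000 bp upstream and 68.9% of sites 1000 bp downstream. The mark was present at 41.0% of starts, against 51.0% at 1000 bp upstream and 68.9% at 1000 bp downstream. In the 1024 genes with the mark only, there was no minimum at the start: the mark was present at 30.3% of sites 1000 bp upstream, 36.8% of starts and 59.3% of sites 1000 bp downstream. The mark lay on both sides of the start but not at it in 394 of 2220 genes with RYBP (17.7%) and in 94 of 1024 without (9.18%), a difference of 8.57 points (Newcombe interval 6.11 to 10.9). RYBP covered 355 of those 394 starts (90.1%).

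The length of the mark differed as well, with a median of 1921 bp in the window of genes with both and 1413 bp in those with the mark only, so the comparison was repeated by length. At 2 to 3 kb of mark in the window, 39.5% of genes with RYBP and 24.6% of those without had the flanked pattern, a difference of 15.0 points (6.67 to 22.4). At 3 kb or more these were 25.6% and 18.8% (difference 6.86 points, -1.02 to 13.5), and at 1 to 2 kb 6.26% and 4.66% (1.6 points, -1.3 to 4.1). Under 1 kb they were 1.5% and 2.3%. The interval of the difference lay above 0 at 2 to 3 kb and included 0 at the other lengths.

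Single genes, chosen after their values were seen, show the pattern. At Bcl11b, for a T-cell and neuronal zinc finger factor with its start at chr12:108004145, RYBP ran from 108001668 to 108007013, while the mark ran from 107998946 to 108002776 and again from 108004286 to 108006171. At Pou4f2, for a retinal factor with its start at chr8:78436647, RYBP ran from 78434094 to 78438747, and the mark from 78434905 to 78436284 and from 78436762 to 78438298. At Cebpa, for a liver and myeloid factor with its start at chr7:35119293, RYBP ran from 35117430 to 35121295, and the mark from 35116631 to 35118785 and from 35119546 to 35125057. In each, 1 RYBP peak ran without a break through the start where the mark was interrupted.

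**Figure D3:**
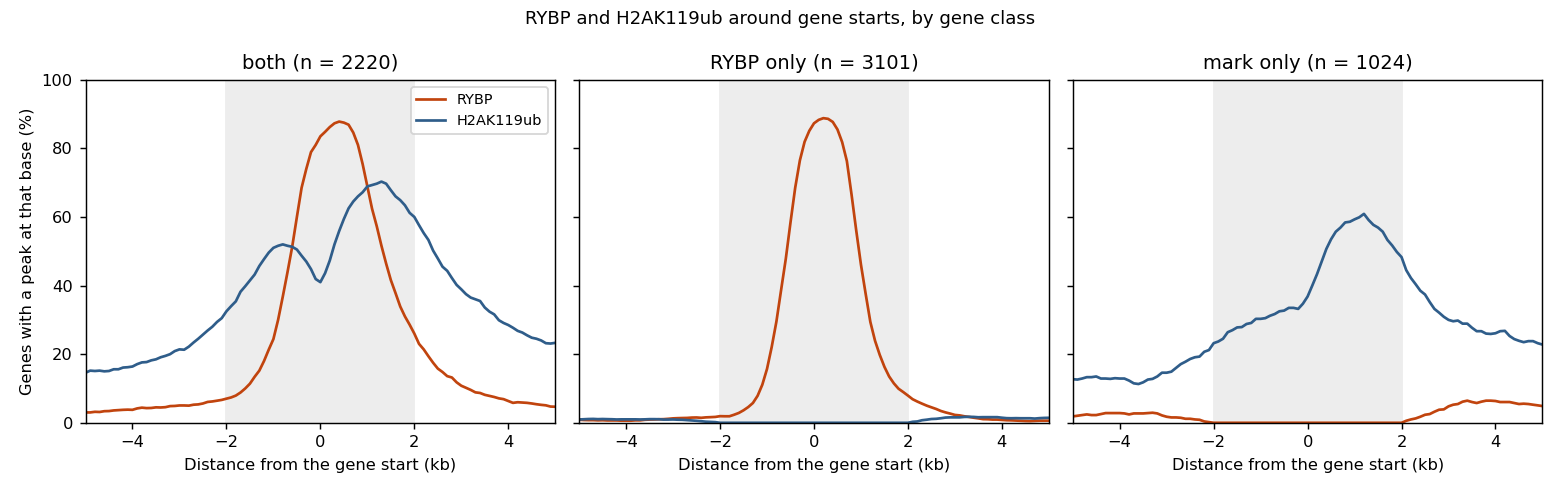
Share of genes with a RYBP peak or a H2AK119ub peak (%) at each distance from the gene start (kb, downstream to the right), by gene class; the shaded windows of 2 kb on either side set the classes. In genes with both (left), the mark dips to 41.0% at the start, where RYBP reaches 83.5%; with the mark only (right) there is no dip.

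Over all 20661 protein-coding genes, 3069 had both (14.9% of genes tested), 3825 RYBP only (18.5%), 1415 the mark only (6.85%) and 12352 neither (59.8%). Any RYBP was at 6894 genes (33.4%) and any mark at 4484 (21.7%). For 4205 genes without a known strand both gene ends were used, which gives a larger window and lets RYBP and the mark lie at different ends. The mark was present at 44.5% of genes with RYBP (43.3% to 45.7%) and at 10.3% of genes without it (9.78% to 10.8%), a difference of 34.2 points (33.0 to 35.5). RYBP thus went with the mark, yet more RYBP genes were without the mark than with it. The length of RYBP in the window was compared in the 5321 RYBP genes with a known strand alone. Among these, the share with the mark was 31.2% at 1 to 2 kb of RYBP and 61.9% at 2 to 3 kb. The share was 86.3% at 3 kb or more (183 of 212). It was 37.8% under 1 kb, where the 357 genes include those at which the window cuts off a peak. Among the 2220 stranded genes with both, the 2 lengths had a Spearman rho of 0.238, given as a description of genes that share libraries and windows.

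Promoter CpG content, which the classes did not use, set them apart. It is given as observed over expected CpG in the 300 bases around the start, for the 16456 genes with a RefSeq promoter. The median was 0.826 in genes with RYBP only (0.817 to 0.834), 0.74 with both (0.725 to 0.75), 0.42 with the mark only (0.395 to 0.45) and 0.379 with neither (0.364 to 0.39). The intervals of the 3 occupied classes did not overlap. A ratio of at least 0.6 was found at 81.7% of RYBP-only, 70.1% of both and 33.0% of mark-only promoters, against 49.8% of all. When genes were divided into 4 groups of near-equal size by CpG ratio, at 0.229, 0.597 and 0.837, the share with RYBP rose from 5.08% to 24.5%, 46.5% and 53.2%. Within each group the mark was more frequent at genes with RYBP than without, at 51.2% and 6.17% in the lowest, 54.3% and 14.3% in the next, 44.3% and 10.9% in the third and 32.8% and 5.2% in the highest. Among RYBP genes, those with the most CpG thus had the mark least often.

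**Figure D4:**
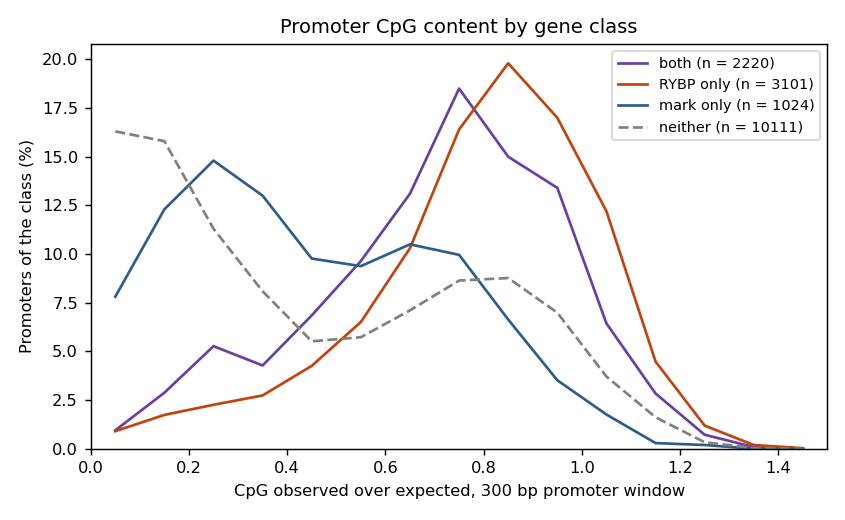
Share of promoters (%) by CpG observed over expected in the 300 bp promoter window, for the 4 gene classes. RYBP-only promoters gather at high ratios (median 0.826), those with both slightly lower (0.74), and mark-only promoters at low ratios (0.42).

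Short letter patterns of known factors were counted in the same 300 bases on both strands, and a promoter can hold several. The E-box CACGTG, read by MAX and its partners, was in 7.97% of all promoters, 10.4% with both, 11.5% with RYBP only and 7.52% with the mark only. The E2F-type TTCCCGC was in 6.14%, 8.11%, 9.96% and 5.66%. The NRF1-type GCATGCG was in 4.58% of all, 4.1% with both (3.35% to 5.01%), 7.64% with RYBP only (6.76% to 8.63%) and 2.34% with the mark only. The YY1-type CCATNTT was in 15.3% of all, 7.16% with both (6.16% to 8.31%), 12.9% with RYBP only (11.8% to 14.2%) and 10.9% with the mark only. The run CGCGCG was in 15.8%, 27.2%, 29.3% and 8.5%. GCATGCG and CCATNTT were thus less frequent with both than with RYBP only, while CGCGCG was about as frequent in either. A match is a description of letters, not a bound site.

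Developmental regulators had both RYBP and the mark. Of 216 genes on the Hox, neural, mesoderm, endoderm and signalling lists, 171 had both (79.2%), 11 RYBP only, 19 the mark only and 15 neither, against 14.9%, 18.5%, 6.85% and 59.8% of all genes. Neighbours in a cluster share peaks, so the members are not independent. Of 39 Hox genes, 35 had both. Hoxb1, Hoxb8 and Hoxd4 had the mark only and Hoxc13 neither. Hoxb1, the hindbrain gene at the end of its cluster, had 4000 bp of mark in its window and no RYBP. Of 50 neural regulators, 46 had both, and Dlx5, Lhx2, Lhx3 and Lhx4 had the mark only. These calls depended on the setting, since neural regulators with both reached 49 over the alternative settings. All 10 genes of the LIM homeobox family, Lhx2, Lhx3 and Lhx4 among them, had both in at least 1 setting. Mesoderm regulators had 27 of 40 with both and endoderm regulators 17 of 23. Of 64 signalling ligands and antagonists, 46 had both, 6 RYBP only, 3 the mark only and 9 neither.

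The exceptions, with windows of 2 kb, include well-known regulators. With RYBP only stood Isl1, for a heart and motor neuron factor (1737 bp of RYBP), Tbx3, for a limb and heart T-box factor (2329 bp), and Hhex, for an early endoderm factor (2324 bp). With the mark only stood Osr1, for a kidney and heart progenitor factor (7846 bp of mark over both gene ends), Tbx5, for a heart and forelimb factor (4963 bp), Pdx1, for a pancreas factor (3884 bp), and Bmp4, for a signalling ligand (1951 bp). Tbx3 and Tbx5 are close neighbours on chromosome 5, and fell in opposite classes.

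Among the genes with the most covered sequence, developmental regulators or ligands occurred in all 3 classes. With both, these genes were Otx1, for a forebrain factor (7124 bp RYBP, 6652 bp mark), Foxf1 (6745 and 7620 bp), Foxc2 (6724 and 6724 bp), Lbx1, for a spinal cord and muscle factor (6450 and 8000 bp), Ano8 (6431 and 7178 bp) and Cbln1, for a synapse organiser (6364 and 6897 bp). Of these, Foxf1, Foxc2, Ano8 and Cbln1 are on chromosome 8. With RYBP only they were Bhlhe40, for a clock-linked repressor (4703 bp), Fam136a (4305 bp), Efna5 and Hmga2 (4000 bp each), Hmga1 (3769 bp) and Jag1, for a Notch ligand (3702 bp). With the mark only they were Meak7 (8000 bp), Dnaaf1, for a cilia assembly factor (7881 bp), Osr1, Cdh5, for the endothelial cadherin (7629 bp), Dlx5, for a branchial arch and forebrain factor (7449 bp), and Ndufa4l2 (7100 bp). Bhlhe40 and Fam136a are on chromosome 6, as is Dlx5, and Meak7, Dnaaf1 and Cdh5 are on chromosome 8. Genes read at both ends can reach 8000 bp and those with a strand 4000 bp, which favours the former. Ranked among genes with a strand alone, an order added after the values were seen, the genes at the full 4000 bp include Cilp2, Hoxa5, Irx3 and Nkx6-2 with both, Efna5 and Hmga2 with RYBP only, and Amn, Aqp2, Aspg, Bcar1, Cdh15 and Erfl with the mark only, tied and named in alphabetical order.

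The Polycomb genes themselves were divided among the classes. Rybp (gene ID 56353, chr6:100228565-100287358) had both, 1959 bp of RYBP and 1300 bp of mark, as did Yaf2 (1340 and 1219 bp). The ligase genes differed, Rnf2 having RYBP only (1694 bp) and Ring1 the mark only (751 bp). Kdm2b, for the CpG-binding subunit, had RYBP only (1808 bp), as did Pcgf6 (1724 bp), whose product defines another variant form. Pcgf5 (2507 and 1640 bp) and Bmi1, which is Pcgf4 (1247 and 768 bp), had both, and Pcgf2 and Pcgf3 had neither. Pcgf1 (1784 and 675 bp) was also classed with both, but had no known strand and was read at both ends. Its RYBP peak (chr6:83077224-83079007) lay at 1 end of the gene, and its mark peak (chr6:83082180-83086809) beyond the other. Over 28 variant PRC1 genes, 8 had both, 8 RYBP only, 1 the mark only and 11 neither (28.6%, 28.6%, 3.57% and 39.3%). Over all genes these shares were 14.9%, 18.5%, 6.85% and 59.8%. Of 11 canonical PRC1 genes 6 had both and none RYBP only. Of 11 PRC2 genes 3 had both and 4 RYBP only, among them Ezh2, for the methyltransferase (2543 bp).

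Pluripotency genes had neither at 20 of 33 (60.6%), near the 59.8% of all genes, and Pou5f1, Nanog and Sox2 were among them. RYBP only was found at Klf4, Klf5, Tbx3, Tcl1 and Trim28, both at Lin28a, Myc, Mycn and Utf1, and the mark only at Dnmt3l, Dppa3, Esrrb and Lefty1. A peak list gives no expression, so it does not check the cell type. Among 12 markers of fibroblasts, the kind of cell feeders usually are, 3 had both, 2 the mark only and 7 neither; the share of feeder chromatin was not tested. Germline genes had RYBP at 30 of 43, against 33.4% of all genes. Both were at 21 (48.8%, against 14.9% of all genes), such as Ddx4, Dazl and Smc1b. RYBP only was at 9 (20.9%), near the 18.5% of all genes, such as Sycp1 and Dmc1, for proteins of meiotic chromosome pairing and recombination. The mark only was at 6 (14.0%, against 6.85%) and neither at 7 (16.3%, against 59.8%). Of 43 imprinted genes, 16 had both, 8 RYBP only, 4 the mark only and 15 neither. Their share with both was 37.2%, against 14.9% of all genes, while RYBP only, at 18.6%, was near the 18.5% of all genes and the mark only was at 9.3%, against 6.85%.

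RYBP only was the most frequent occupied class over all genes, at 18.5% against 14.9% with both, and housekeeping families fell on either side of that share. Nucleoporin genes had RYBP only at 11 of 20 and the mark at none. Translation factor genes had 19 of 53 with RYBP only and 5 with both, DEAD and DEAH box helicases 18 of 51 and 2, and RNA polymerase and Mediator genes 18 of 56 and 3. Cytosolic ribosomal protein genes had 14 of 80 with RYBP only and 2 with both, so the share with RYBP only, 17.5%, was near the 18.5% of all genes. Mitochondrial ribosomal protein genes (18.2%), proteasome genes (18.0%) and NADH dehydrogenase genes (21.1%) were near it too. Enzymes of glycolysis and the citric acid cycle had 7 of 30 with RYBP only and none with both.

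With these windows, the mark without RYBP was the largest occupied class at a few clustered families. Of 53 keratin genes, for filament proteins of epithelia, 23 had the mark only (43.4%, against 6.85% of all genes) and 2 had both, and these were Krt8 and Krt18, the pair of simple epithelia. The type II keratin cluster on chromosome 15 held 80 mark peaks over 26 genes, 3 of the peaks with RYBP, and the mark covered 19.0% of it. The type I cluster on chromosome 11 held 14 mark peaks over 27 genes, none with RYBP. The mark covered 2.22% of it, near the 1.88% of the autosomes between their first and last gene. Of 57 clustered protocadherin genes, for neuronal adhesion proteins, 28 had the mark only (49.1%) and 11 both (19.3%, against 14.9% of all genes). None of the 57 had a known strand, so all were read at both gene ends, and neighbours can share peaks. Over the alternative settings, those with both reached 35 and those with the mark only 30, so the split depended on the setting. Potassium channel genes, by contrast, had both at 42 of 79 (53.2%) and the mark only at 9 (11.4%). Families without either were found too: 1095 of 1101 olfactory receptor genes had no peak, and none of 352 vomeronasal receptor genes had one.

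**Figure D5:**
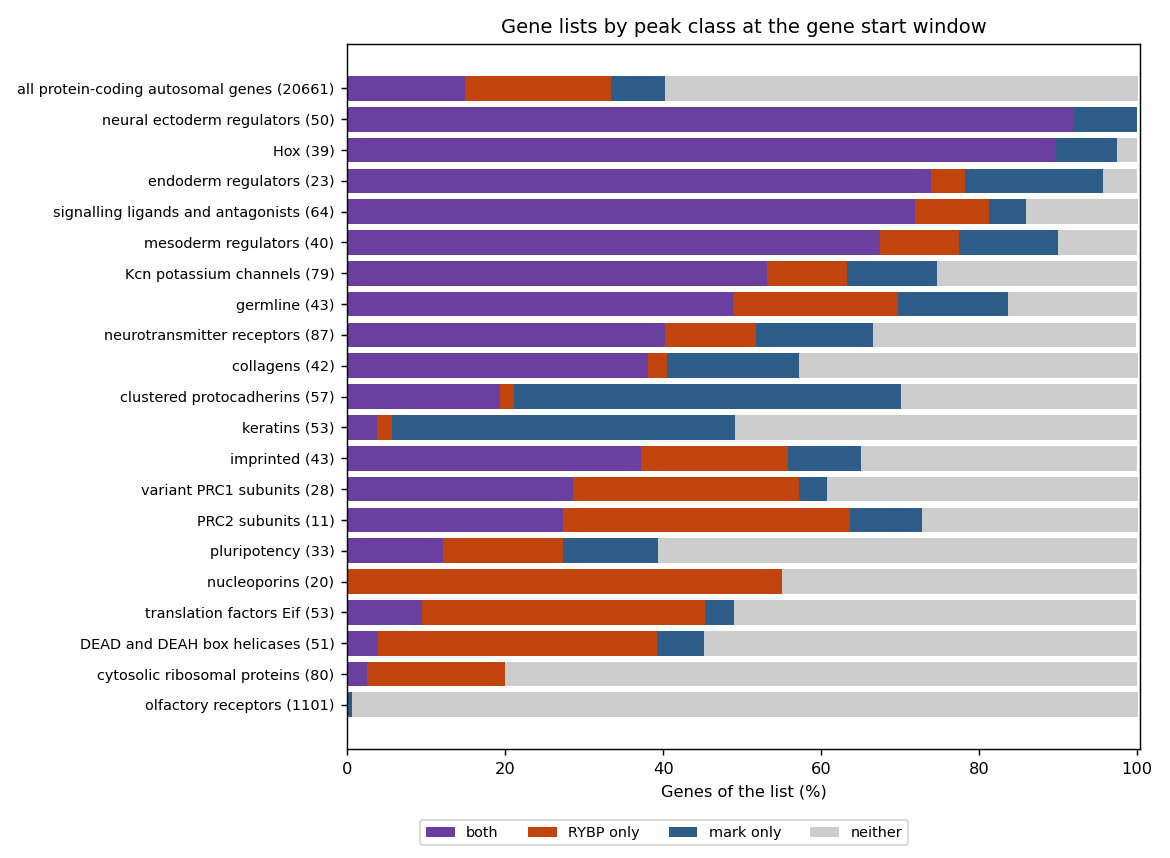
Share of genes (%) with both, RYBP only, the mark only or neither in the gene start window, for all protein-coding autosomal genes and for 20 lists and families, with the number of genes in brackets. Developmental lists are mostly both, and nucleoporins, translation factors and helicases mostly RYBP only among occupied genes. Keratins and clustered protocadherins, the latter read at both gene ends, are mostly mark only among occupied genes.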

How the data were processed

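Per the labels, wild-type MPI-II cells gave 1 RYBP and 1 H2AK119ub ChIP-seq library. Bowtie2 2.2.5, MACS 1.4 and build mm10 are named per the submitters' processing notes; what each tool did, at which threshold and with which input is not given in the sources used here. 1 peak list per library was deposited by the authors, with chromosome, start and end. The deposited score is 0 for every peak, so neither height nor depth was available, and a deeper library can give more and wider peaks.

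Starts were converted to count from 1. Overlap was at least 1 bp. Genes and promoters came from RefSeq tables of GRCm38.p6; 16456 of 20661 protein-coding autosomal genes had a promoter and so a strand, and a window of 2 kb on either side of the start, while 4205 had windows at both ends. Shares have 95% Wilson intervals and differences Newcombe intervals. Genes were named by covered length, 6 per class and up to 2 per class and list, with the RYBP, RING1 and PCGF genes always named, and regions by number of RYBP peaks or width, 5 per rule. Members and lists were chosen with earlier results of these data known. Python 3.11.15, pandas 2.3.3, numpy 2.4.6 and scipy 1.17.1 were used, and the scripts were tested on simulated data. A few genes and regions the rules took are not reported here.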

Additional observations from a re-analysis of the deposited data

How the results depend on the processing

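Each share comes from 1 library a side and positions alone, so biological and technical spread are unknown. No paired analysis was possible because each group has 1 library and the labels give no replicate numbers. Of 79 alternative values of the main results, 50 moved by less than their counting interval, or by less than 1.5 times for counts, and 29 moved more; the cause was not tested beyond what each construction fixes. RYBP peaks on the mark were 33.0% with an overlap of at least 50%, 28.9% by peak centre, 45.3% with peaks within 2 kb merged, 45.0% at 1 kb or more, 33.3% with equal numbers of peaks (the widest mark peaks) and 45.5% without chromosomes 6 and 8. Mark peaks with RYBP were 9.3%, 10.2%, 26.4%, 25.7% and 35.7% under the first 5 of these. In domains, the inner and outer part held 54.0% and 9.09% of RYBP peaks wholly inside, which cannot be centred near an edge, and 36.5% and 33.4% at 3 kb or more; the outer part held 20.6% with mark peaks merged. The mean per domain was 0.522 counting RYBP peaks wholly inside and 1.39 at 10 kb or more. The share with at least 2 was 16.1% with mark peaks merged, 7.21% wholly inside, 8.51% at 3 kb or more, 42.8% at 10 kb or more, 21.1% without chromosomes 6 and 8 and 13.3% with RYBP peaks within 1 kb merged. Mark-only genes were 731 with equal numbers of peaks. Developmental genes with both were 109 of 138 with a known strand, against 171 of 216 in the main setting. This alternative was chosen after seeing the data. The median CpG ratio with both was 0.758 by peaks over the promoter itself and 0.752 with windows of 1 kb, and with the mark only 0.353 by peaks over the promoter. Over all settings, genes with both ranged from 2107 to 4220 and RYBP-only genes from 3101 to 4787. The 3101 are of the 16456 genes with a known strand, and their share, 18.8%, was near the 18.5% of the main setting. Of 1071 values of single lists, 183 moved. Counts were compared without regard to the number of genes. That number is smaller with a known strand alone and without chromosomes 6 and 8, so some counts moved for that reason.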

Other observations

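Long non-coding RNA and microRNA genes had the mark more often than RYBP, and snoRNA genes less often. The mark was at 15.2% of lncRNA genes and RYBP at 12.4%, while of 1286 snoRNA genes RYBP was at 41 (3.19%, 2.36% to 4.3%) and the mark at 20 (1.56%, 1.01% to 2.39%). Of 12408 lncRNA genes, 6.29% had both, 6.07% RYBP only and 8.88% the mark only. Of 1136 microRNA genes, 6.6% had both, 5.11% RYBP only and 12.2% the mark only (10.5% to 14.3%). These kinds of gene were read at both gene ends where no strand was known, and a microRNA inside a host gene shares the peaks of the host.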
